A study of Homo sapiens with 6 samples.

Results

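Estrogen receptor alpha (ERα) carrying the mutation Y537S and given no added estradiol (E2) was compared with wild-type ERα in cells given E2, as chromatin binding in MDA-MB-453, a human breast cancer cell line that is androgen receptor positive and ERα negative. Binding was measured by chromatin immunoprecipitation and sequencing (ChIP-seq) with the ERα antibody D8H8. The members were the peaks of the Y537S list and of the WT + E2 list on chromosomes 1 to 22, 113714 in Y537S and 117710 in WT + E2. Peaks that overlapped by 1 bp or more were merged into 137970 regions, against 169433 regions over all 6 lists of the series. The question was whether the mutant without hormone stands where hormone-bound wild type stands, in which regions and at what height.

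The Y537S cells carried a doxycycline-inducible Y537S ERα and received 2 µg/mL doxycycline for 2 days with no added E2. The WT + E2 cells carried an inducible wild-type ERα and received the same doxycycline for 2 days with 1 nM E2. The other 4 libraries were Y537S + E2, WT without E2, K303R + E2 and K303R without E2, where K303R is another ERα mutation. All 6 were grown in medium with serum that the labels do not describe as stripped of hormone, so "without E2" means that none was added. The receptor is ectopic in every line, and the labels do not say whether a line is a clone or a pool. Each group had 1 library, so no difference between conditions has a replicate check. Intervals of ratios cover counting error only. Intervals of shares treat regions or promoters as independent draws and cover neither a second library nor another setting. The names of the peaks hold a tag in the form of a date, which is the same in the WT and K303R lists and different in the Y537S lists, so receptor, cell line and tag cannot be told apart.

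ERα is a ligand-activated transcription factor. Bound estradiol folds the last helix of its ligand-binding domain over the hormone pocket, and that surface recruits coactivators such as the p160 proteins. The mutated tyrosine lies at the start of that helix, and its change to serine, known from endocrine-resistant metastatic breast cancer, holds the helix in the active position without ligand. The receptor dimer binds the estrogen response element, a palindrome whose arms read GGTCA and TGACC around 3 free bases, and in breast cells most of its sites lie far from promoters and are opened by factors such as FOXA1, GATA3 and AP-2γ.

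Promoters at which the 2 libraries differed most, or that held a full element, are printed to show what the receptor sat on. RefSeq promoters (assembly GRCh38.p14, the build of the deposited lists) were used, and each line gives the 250 bases before the transcription start, 5′ to 3′ on the gene's strand, with every GGTCA or TGACC in capitals. SERPINE2 (chr2:224038641-224038890, minus strand), which encodes the protease inhibitor nexin 1, DLX1 (chr2:172085257-172085506, plus strand), a homeobox factor, and LIN7C (chr11:27506770-27507019, minus strand), a scaffold of cell junctions, had the highest ratios of Y537S to WT + E2 among protein-coding promoters whose summit lay upstream of the start. THSD4 (chr15:71096644-71096893, plus strand), a matrix protein, SLC30A4-AS1 (chr15:45448104-45448353, plus strand) and SLC35B2 (chr6:44257529-44257778, minus strand), a Golgi transporter of activated sulfate, had the lowest. ZNF669 (chr1:247104357-247104606, minus strand), a zinc finger gene, did not differ by the call and held a full element.
SERPINE2: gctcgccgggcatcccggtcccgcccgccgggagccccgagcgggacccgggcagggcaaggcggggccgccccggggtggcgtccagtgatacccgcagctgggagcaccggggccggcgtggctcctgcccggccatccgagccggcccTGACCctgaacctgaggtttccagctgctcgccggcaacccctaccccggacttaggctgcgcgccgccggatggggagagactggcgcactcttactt
DLX1: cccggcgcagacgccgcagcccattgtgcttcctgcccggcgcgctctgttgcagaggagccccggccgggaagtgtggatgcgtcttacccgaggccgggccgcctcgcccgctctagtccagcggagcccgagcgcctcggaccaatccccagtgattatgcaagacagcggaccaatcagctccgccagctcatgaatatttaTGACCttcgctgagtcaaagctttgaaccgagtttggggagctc
LIN7C: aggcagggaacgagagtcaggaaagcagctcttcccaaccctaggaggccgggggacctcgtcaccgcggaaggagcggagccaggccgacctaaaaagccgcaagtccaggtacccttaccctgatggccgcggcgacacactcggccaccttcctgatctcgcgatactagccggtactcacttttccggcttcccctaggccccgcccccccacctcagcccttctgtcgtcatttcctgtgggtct
THSD4: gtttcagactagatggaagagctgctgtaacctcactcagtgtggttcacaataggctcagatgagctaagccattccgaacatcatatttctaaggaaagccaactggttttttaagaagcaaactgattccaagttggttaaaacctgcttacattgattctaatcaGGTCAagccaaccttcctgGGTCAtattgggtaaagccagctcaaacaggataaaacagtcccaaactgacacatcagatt
SLC30A4-AS1: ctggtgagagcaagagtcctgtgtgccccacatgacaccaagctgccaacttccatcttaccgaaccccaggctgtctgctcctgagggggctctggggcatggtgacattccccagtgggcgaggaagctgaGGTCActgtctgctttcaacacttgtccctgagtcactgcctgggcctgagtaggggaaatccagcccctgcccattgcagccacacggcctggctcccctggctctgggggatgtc
SLC35B2: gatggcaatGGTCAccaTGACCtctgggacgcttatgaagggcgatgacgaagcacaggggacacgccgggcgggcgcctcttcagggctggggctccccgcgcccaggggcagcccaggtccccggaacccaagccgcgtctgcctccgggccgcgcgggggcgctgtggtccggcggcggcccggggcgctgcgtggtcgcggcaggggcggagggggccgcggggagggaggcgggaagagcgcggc
ZNF669: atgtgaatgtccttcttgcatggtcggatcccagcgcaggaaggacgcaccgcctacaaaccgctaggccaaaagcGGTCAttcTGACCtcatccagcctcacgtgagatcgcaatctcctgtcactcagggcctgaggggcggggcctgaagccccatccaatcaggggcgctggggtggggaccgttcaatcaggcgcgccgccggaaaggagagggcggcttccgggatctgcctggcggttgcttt

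The SERPINE2 promoter had 112 fragments at its summit in Y537S and 34 in WT + E2, a ratio of 3.47 (95% counting interval 2.34 to 5.25), and its summit lay at -150 from the start, in a window with a single TGACC. DLX1 had 90 fragments in Y537S and 37 in WT + E2, a ratio of 2.56 (1.73 to 3.86). LIN7C had 103 in Y537S and 44 in WT + E2, a ratio of 2.46 (1.72 to 3.59), with neither GGTCA nor TGACC in the printed window. In the other direction, THSD4 had 47 fragments in Y537S and 203 in WT + E2, a ratio of 0.244 (0.174 to 0.336), and its promoter held GGTCA at 2 places. Its other libraries lay on the same sides, with 54 fragments in Y537S + E2 and 201 in WT. SLC30A4-AS1 had 35 in Y537S and 88 in WT + E2, a ratio of 0.419 (0.275 to 0.626). SLC35B2 had 54 in Y537S and 116 in WT + E2, a ratio of 0.490 (0.348 to 0.682), with the full palindrome starting at -241 and the summit at -226. ZNF669 had 193 in Y537S and 224 in WT + E2, a ratio of 0.907 (0.744 to 1.10), with the palindrome starting at -174 and the summit at -184. A full element was thus present both at a promoter that was lower in Y537S and at one that was not called.

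The summit fragments are the number of sequenced fragments that cover the highest point of a peak. They were recovered from the fold and the p-value that the authors' lists give for each peak, and 100.0% of peaks in each of the 6 libraries matched whole numbers of fragments within 0.01%. The median peak had 25 fragments in Y537S and 27 in WT + E2, the 6 libraries had medians of 24 to 30, and the total number of reads is not known. Ratios between libraries were divided by the median ratio of the regions compared, so they state how a region moved relative to the typical region. Before this centring the median region had 0.950 times as many fragments in Y537S as in WT + E2. The lowest local background of the 2 libraries stood in a ratio of 0.855, and scaling by it instead would put the median region at 1.11, a shift of 0.15 on the log2 scale.

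Most of the binding map was shared. Of the 137970 regions, 91856 (66.6%, 95% Wilson interval 66.3 to 66.8) lay in both lists, 21049 (15.3%) in the Y537S list only and 25065 (18.2%) in the WT + E2 list only. Of the Y537S peaks, 81.5% overlapped a WT + E2 peak, and 78.7% of the WT + E2 peaks overlapped a Y537S peak. The regions found in 1 list were weak: those of Y537S alone had a median of 10 fragments and those of WT + E2 alone a median of 13, while regions in both had medians of 33 in Y537S and 37 in WT + E2. None of the 10000 Y537S peaks of highest significance was absent from the WT + E2 list (Wilson upper limit 0.0384%, were peaks independent draws). None of the 10000 strongest WT + E2 peaks was absent from the Y537S list. Ranked by fold enrichment instead, 4 of 10000 Y537S peaks and 7 of 10000 WT + E2 peaks had no partner. Among the 50000 most significant peaks, 438 (0.876%) of Y537S and 560 (1.12%) of WT + E2 had none.

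The Jaccard index, the shared bases over all bases covered by either list, was 0.609 for Y537S with WT + E2 and 0.589 for Y537S with WT. It was 0.679 for Y537S + E2 with Y537S, 0.650 for WT + E2 with WT and 0.620 for K303R + E2 with K303R. Y537S without hormone was thus less like either wild-type list than the 2 lists of the Y537S or WT line were like each other. The K303R pair stood near the 0.609 of Y537S with WT + E2, and with equal numbers of peaks both indices were 0.620. Over all peaks the index of Y537S was 0.567 with K303R + E2 and 0.528 with K303R. These pairs share libraries, so the indices are a description.

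Regions of 1 list recurred most often in the other list of the same cell line, an order that their choice partly builds in. Those of Y537S alone were chosen as absent from a WT list, and those of WT + E2 alone as absent from a Y537S list. Of the 21049 regions of Y537S alone, 47.5% were also in the Y537S + E2 list, 32.8% in the WT list, 24.4% (5129) in the K303R + E2 list and 4625 regions in the K303R list. Of the 25065 regions of WT + E2 alone, 58.3% were in the WT list, 39.2% in the K303R + E2 list, 39.6% in the K303R list and 25.2% in the Y537S + E2 list. In no other list were 6738 (32.0%) of the Y537S regions and 6003 (23.9%) of the WT + E2 regions. Only 297 regions of Y537S alone and 452 of WT + E2 alone reached 50 fragments. The Y537S region of highest significance among these lay 30541 bp from WNT7B, a Wnt ligand gene (chr22:46007277-46007955). It had 136 fragments in Y537S and 146 in Y537S + E2, was not listed in WT + E2, and had 31 in WT. The next were near DHRS3, a retinaldehyde reductase gene, with 90 fragments in Y537S, and in CNIH3, an AMPA receptor accessory gene, with 54. Among regions of WT + E2 alone, 1 lay within EVL, an actin regulator of the Ena/VASP family (chr14:100096385-100097095). It had 103 fragments in WT + E2, 80 in WT, 100 in K303R + E2 and 91 in K303R. Neither Y537S list had a peak summit inside it. The others were 395860 bp from TFAP2A, the gene of AP-2α, with 70 fragments in WT + E2, and 410085 bp from PLXNA2, a semaphorin receptor gene, with 75.

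Heights were compared at the 35105 regions that were in both lists with a mean of 50 or more fragments over the 2 libraries, 25.4% of all merged regions. The other 56751 shared regions fell under that minimum, where counting error is wide. A call needed a change past 1.5-fold together with a counting interval (Clopper-Pearson, 2-sided error 0.001) that left out 1. By that rule 2443 regions (6.96%) stood higher in Y537S, 2313 (6.59%) stood lower and 30349 (86.5%) were not called. Whatever their interval, 1085 regions had a ratio past 2-fold higher and 1155 past 2-fold lower, and the ratios ran from 0.129 to 9.14, with 90% of them between 0.553 and 1.81. Scaled by the lowest local background, the calls became 4211 higher and 1341 lower, so that 75.8% of calls were higher against 51.4% with the median scaling. The excess of higher over lower calls therefore rests on the scaling, and ratios below are relative to the median region.

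**Figure D1:**
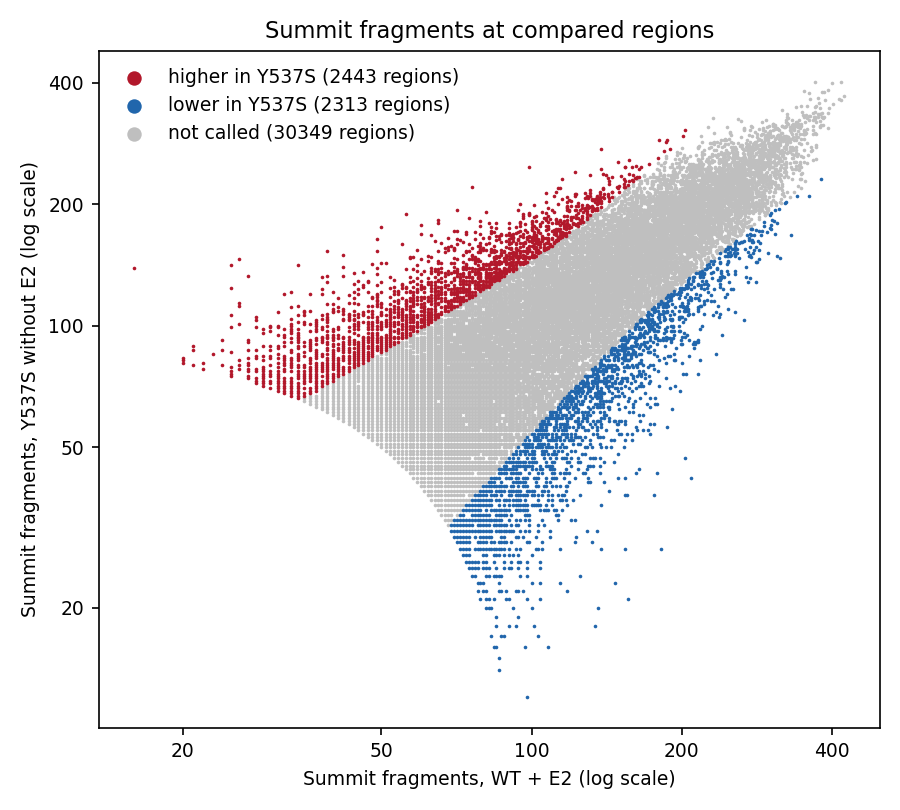
Summit fragments in Y537S without E2 (vertical axis, log scale) against WT + E2 (horizontal axis, log scale) at the 35105 regions compared, where each point is a pair of counts. The 2443 regions higher in Y537S (red) lie above the diagonal band, the 2313 lower ones (blue) below it, and the band narrows at the strongest regions.

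The 2 summits of a region lay a median of 19 bp apart, and 97.7% lay within 100 bp, so the compared heights belong to nearly the same point of the genome. The ratios were tightest at the strongest sites. At 50 to 75 mean fragments, 7.94% of regions were higher in Y537S and 7.97% lower, and at 100 to 150 fragments 8.51% were higher and 6.94% lower. At the 3249 regions with a mean of 200 or more, 0.554% were higher and 2.52% lower, with a median of -0.09 on the log2 scale. The strongest sites are also the ones measured with the least counting error. The SD of the log2 ratio was 0.65 at 50 to 75 fragments, where counting error alone gives 0.27. At 200 or more it was 0.25, where counting error alone gives 0.13.

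The spread between Y537S and WT + E2 was wider than the one E2 made within either line. Over the 34016 regions in all 6 lists, the log2 ratio of Y537S to WT + E2 had an SD of 0.52. Counting error alone gives 0.22, which leaves an SD of 0.47 beyond it when the variances are subtracted. Within 1.5-fold lay 77.6% of regions. For Y537S over WT the SD was 0.58 with 73.7% within 1.5-fold. For Y537S + E2 over Y537S it was 0.23, where counting error alone gives 0.21, and 97.6% lay within 1.5-fold. For WT + E2 over WT it was 0.33 with 92.1% within 1.5-fold. Adding E2 to the Y537S cells moved 35 regions up (0.103%) and 27 down (0.0794%) by the same call, while adding it to WT cells moved 567 up (1.67%) and 190 down (0.559%). The calls of Y537S over WT + E2 at these regions were 2318 higher and 2231 lower, and those of Y537S over WT were 3314 higher and 2425 lower. The minimum of 50 mean fragments was set on Y537S and WT + E2 and not on WT. This choice of regions can tilt ratios over WT upward, so the excess of higher calls over WT cannot be told apart from it.

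The other 2 libraries of the same lines give the difference again without sharing a library: Y537S + E2 over WT. Of the 2443 regions called higher in Y537S than in WT + E2, 2398 had a value there, their median ratio was 1.82, 2343 (97.7%) were above 1 and 1467 (61.2%) were called higher, against 10.7% of all 34753 regions with values. Of the 2313 called lower, 2282 had a value, their median ratio was 0.585, 2188 (95.9%) were below 1 and 1255 (55.0%) were called lower, against 7.93% of all. None was called in the opposite direction. The called differences thus recurred with the hormone exchanged between the lines, and this pair carries the same cell lines and tags as the first.

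Whether the mutant stands at the hormone-bound level was asked at regions where hormone matters, chosen by K303R + E2 over K303R, which uses neither library of the comparison. By the same call E2 raised 809 regions in K303R (2.38%) and lowered 263 (0.773%), and the raised ones had a median of 98 fragments in K303R + E2 and 39 in K303R. At these regions the median was 97 fragments in Y537S, 112 in Y537S + E2, 95 in WT + E2 and 66 in WT. The median ratio of Y537S to WT + E2 was 1.11 (interquartile range 0.833 to 1.46), and that of Y537S to WT was 1.57 (1.14 to 2.14). Of the 809 regions, 124 (15.3%) were higher in Y537S than in WT + E2 and 53 (6.55%) were lower. Over all regions in the 6 lists these shares were 6.81% and 6.56%. Within 1.5-fold of WT + E2 lay 535 (66.1%), fewer than the 77.6% of all regions. Against WT without E2, 338 (41.8%) were higher in Y537S and 19 (2.35%) lower, against 9.74% and 7.13% of all. Within 1.5-fold of WT without E2 lay 340 (42.0%), against 73.7% of all. E2 moved the same regions by a median of 1.02-fold in Y537S and 1.39-fold in WT, and with E2 in both lines the median ratio of Y537S + E2 to WT + E2 was 1.13. The ratios to WT + E2 and to WT share the Y537S library, and their values are set side by side only.

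The pattern was graded. At the 102 regions with the strongest E2 response in K303R (log2 of 1.5 or more) the median log2 ratio was 0.38 for Y537S over WT + E2, 1.11 for Y537S over WT and 0.68 for WT + E2 over WT. At the 18210 regions with a K303R response within 0.25 of zero the medians were -0.02, -0.05 and -0.02 in the same order. At the 263 regions that E2 lowered in K303R, the median ratio was 0.949 for Y537S over WT + E2, 0.798 for Y537S over WT and 0.837 for WT + E2 over WT. Of these, Y537S exceeded WT + E2 by the call at 14 (5.32%) and fell below it at 29 (11.0%), against 6.81% and 6.56% of all regions in the 6 lists. In the median over hormone-raised regions, then, the unliganded mutant stood nearer to wild type with E2 than to wild type without it. The ratio to WT + E2 lay between 1.11 and 1.21 under the other settings tried. The set of raised regions changed with the setting, to 4747 with background scaling and 466 with a 2-fold choice.

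**Figure D2:**
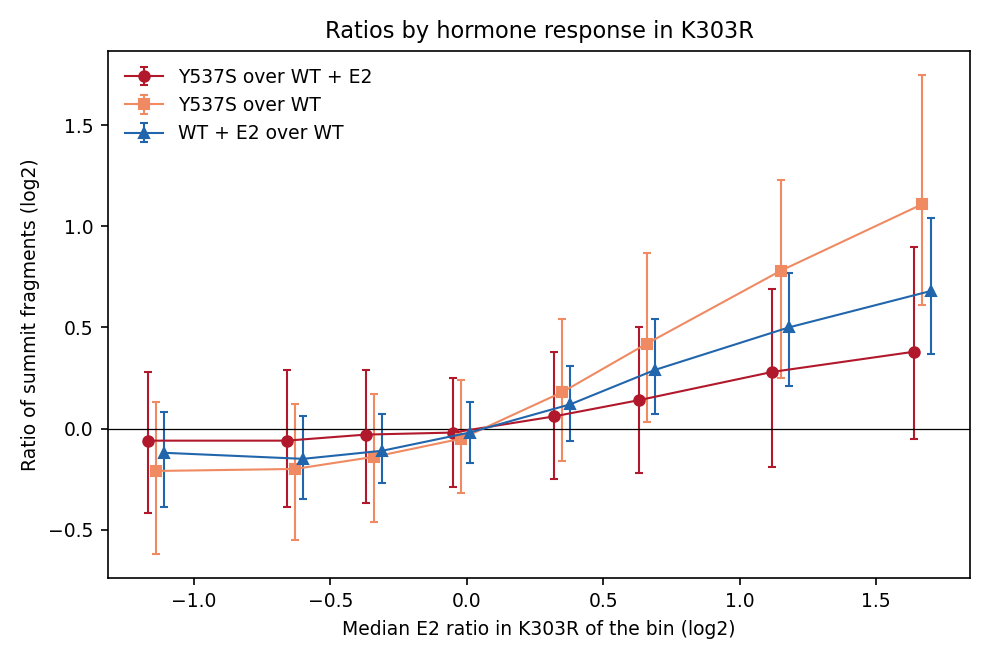
Median log2 ratio of summit fragments (points; bars are the interquartile range over regions) against the median log2 E2 ratio in K303R of 8 bins of regions. Y537S over WT (orange) reaches 1.11 in the most hormone-raised bin, WT + E2 over WT (blue) 0.68 and Y537S over WT + E2 (red) 0.38.

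Single regions show the range within this set. JARID2, a gene of a Polycomb repressive complex 2 cofactor, held a region within its gene span (chr6:15514001-15514817) with 79 fragments in Y537S, 80 in Y537S + E2, 29 in WT + E2 and 14 in WT, a ratio to WT + E2 of 2.87 (1.85 to 4.55). TENM2, an adhesion receptor of the teneurin family, had 85 in Y537S and 37 in WT + E2, a ratio of 2.42 (1.63 to 3.66). Near NGEF, a guanine nucleotide exchange factor, the counts were 79 in Y537S and 41 in WT + E2, a ratio of 2.03 (1.37 to 3.03). All of these were called higher, and in all of them both Y537S libraries stood above both wild-type libraries.

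The others of the 8 regions with the highest K303R response were not called. GFRA1, the co-receptor of the ligand GDNF, had 98 fragments in Y537S, 68 in WT + E2 and 44 in WT. ZMIZ1, a transcriptional coactivator, had 80 in Y537S, 55 in WT + E2 and 43 in WT. FAM83E had 80 in Y537S, 47 in WT + E2 and 37 in WT, on chromosome 19. RASSF4, a Ras association gene, had 64 in Y537S and 70 in WT + E2, a ratio of 0.962 (0.675 to 1.37). KCNAB2, a potassium channel subunit gene, had the lowest ratio, with 54 in Y537S, 80 in WT + E2 and 47 in WT, a ratio of 0.711 (0.494 to 1.02). Thus 7 of the 8 had a ratio to WT between 1.64 and 5.80, and KCNAB2 one of 1.18. At the 3 regions most lowered by E2 in K303R, within DPY19L3, PARP12 and SPATA9, the ratios of Y537S to WT + E2 were 1.48, 1.07 and 1.01, none of them called.

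The most different regions with a protein-coding gene within 25 kb were others than these. The highest ratio was in ZNF385D, a zinc finger gene (chr3:22240356-22240967), with 141 fragments in Y537S and 159 in Y537S + E2, against 25 in WT + E2 and 31 in WT. Its ratio was 5.94 (3.86 to 9.48). PLXNB2, a semaphorin receptor gene (chr22:50281636-50282328), followed with 146 in Y537S and 26 in WT + E2, a ratio of 5.91 (3.88 to 9.35). BCL11B, a zinc finger factor of T cells, had 124 in Y537S and 25 in WT + E2. A region 22615 bp from DHCR7, which makes cholesterol in the last step of its synthesis, had 133 in Y537S and 27 in WT + E2. The remaining ones lay in PCNT, a centrosome scaffold, TBC1D9, a Rab GTPase regulator, ASTN1, a neuronal adhesion gene, and RCOR1, a subunit of the CoREST corepressor, with ratios of 4.37 to 4.53. In all 8 both Y537S libraries had 83 or more fragments and both wild-type libraries 34 or fewer.

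The lowest ratio by the same rule was in AP3B1, an adaptor of vesicle sorting (chr5:78204144-78204823), with 17 fragments in Y537S and 32 in Y537S + E2, against 103 in WT + E2 and 101 in WT. Its ratio was 0.174 (0.0975 to 0.292). CST5, a cysteine protease inhibitor (chr20:23878526-23879000), had the largest counts, 42 in Y537S and 60 in Y537S + E2, against 209 in WT + E2 and 192 in WT, a ratio of 0.212 (0.148 to 0.296). A region 3831 bp outside POLD3, a DNA polymerase delta subunit gene, had 16 in Y537S and 84 in WT + E2, and GLCE, an enzyme of heparan sulfate synthesis, had 17 in Y537S and 88 in WT + E2. STARD13, a GTPase-activating protein, had 18 in Y537S and 93 in WT + E2, while another region at a STARD13 start was higher, with 126 in Y537S and 70 in WT + E2. SV2B, a synaptic vesicle glycoprotein, had 23 in Y537S and 114 in WT + E2. A region 1742 bp outside SERPINA1, the gene of alpha-1 antitrypsin, had 21 in Y537S, 61 in Y537S + E2 and 104 in WT + E2. The last of the 8, in KIF6, a kinesin gene, had 18 in Y537S and 90 in WT + E2. None of the other 4 lists had a peak summit inside this region, so its difference has no second pair of libraries.

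**Figure D3:**
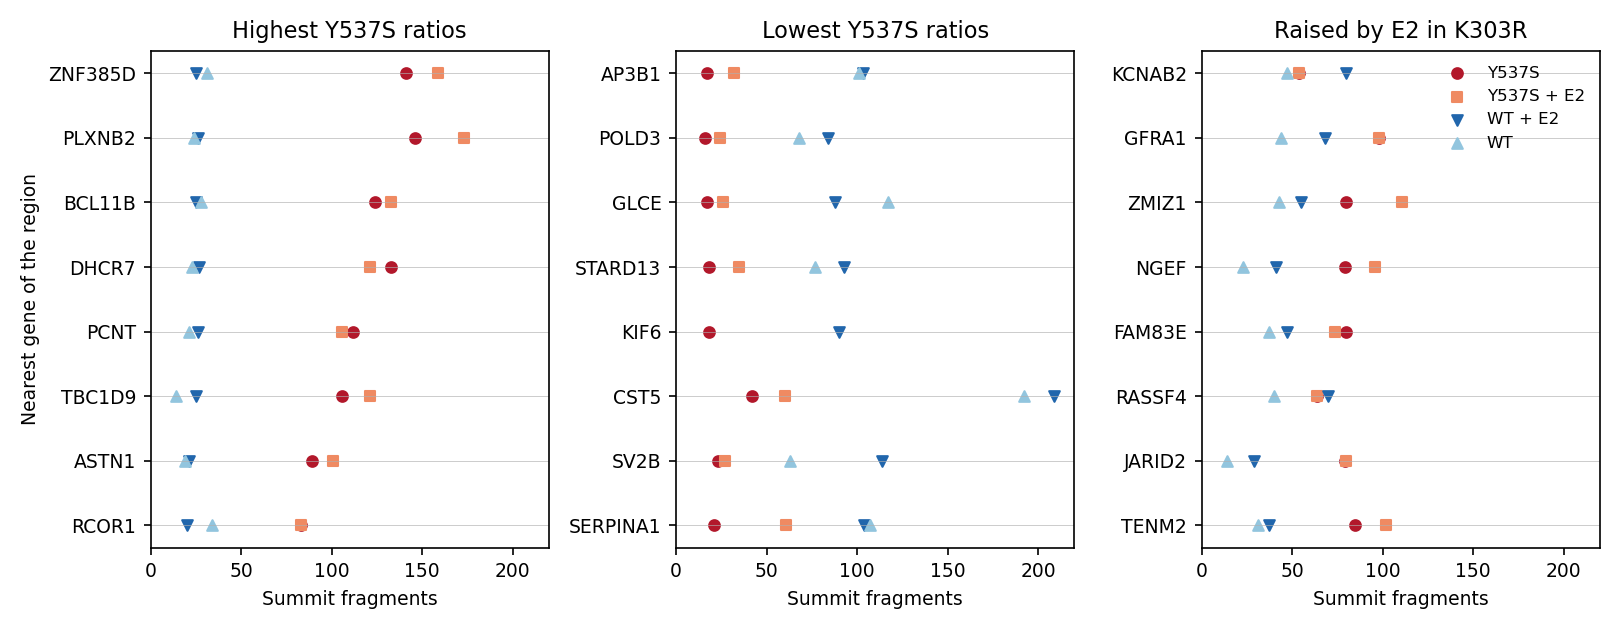
Summit fragments (horizontal axes) of the 8 regions with the highest ratio of Y537S to WT + E2, the 8 with the lowest and the 8 most raised by E2 in K303R, by gene. In the left panel both Y537S libraries (red, orange) stand at 83 or more and both wild-type libraries (blue) at 34 or fewer, and the KIF6 row has points only for Y537S and WT + E2.

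Genes known as estrogen receptor targets in breast cancer cells were read through regions within 25 kb of the gene. Of 45 listed targets, 40 had a compared region and 218 regions in all. The 5 without one were EGR3, OLFM1, RBBP8, UGCG and IL6ST. The median ratio of the 218 regions was 0.893 (log2 -0.16), with 12 higher (5.50%) and 32 lower (14.7%), beside 6.96% and 6.59% of all regions. The same regions had medians of 0.889 for Y537S + E2 over WT and 0.884 for Y537S over WT. Target regions were stronger than the typical one, with a median of 118 mean fragments against 96.0, and the 33 with 200 or more had a median log2 ratio of -0.25. Scaling by background put the median over targets at -0.01, and centring within 5 Mb windows at -0.07.

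At the strongest region of each target, none of 40 was called higher, 4 were called lower and 36 were not called, and the 95% interval included 1 in 16. The 4 were PGR, the progesterone receptor, with 168 fragments in Y537S and 331 in WT + E2 (ratio 0.534), IGFBP4, an IGF-binding protein, with 135 in Y537S and 240 in WT + E2 (0.592), CISH, a cytokine signalling inhibitor, with 132 in Y537S and 238 in WT + E2 (0.584), and TGFA, an EGF receptor ligand, with 122 in Y537S and 198 in WT + E2 (0.649). PGR had all 3 of its regions called lower. TGFA lost its call under the background and the window scalings.

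The 12 targets with most fragments are given by their strongest region, and every compared region lies in both lists by the rule of choice. NHERF1, a membrane scaffold, had the highest counts, 372 in Y537S and 423 in WT + E2 (ratio 0.926). GREB1, a receptor cofactor, had 231 in Y537S and 289 in WT + E2 (0.841), and XBP1, a factor of the unfolded protein response, had 264 in Y537S and 340 in WT + E2 (0.817). NRIP1, a corepressor, had 225 in Y537S and 295 in WT + E2 (0.803), and SIAH2, a ubiquitin ligase, had 231 in Y537S and 290 in WT + E2 (0.838). Ratios for RET, a receptor tyrosine kinase, FHL2, a LIM-domain cofactor, FKBP4, an HSP90 co-chaperone, and SLC22A5, a carnitine transporter, were 0.887, 0.866, 0.792 and 0.785. Those for SERPINA1, WWC1, a Hippo pathway scaffold, and TPD52L1, a tumour protein D52 relative, were 0.796, 0.760 and 0.748. All 12 ratios lay below that of the median region and none was called, and with background scaling the median region itself stands 0.15 higher. TPD52L1, like MYB, ELOVL2, KCNK5 and PKIB, lies on chromosome 6, where the 25 target regions had a median of -0.39. Without chromosomes 6, 15 and 19 the median over targets was -0.14.

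**Figure D4:**
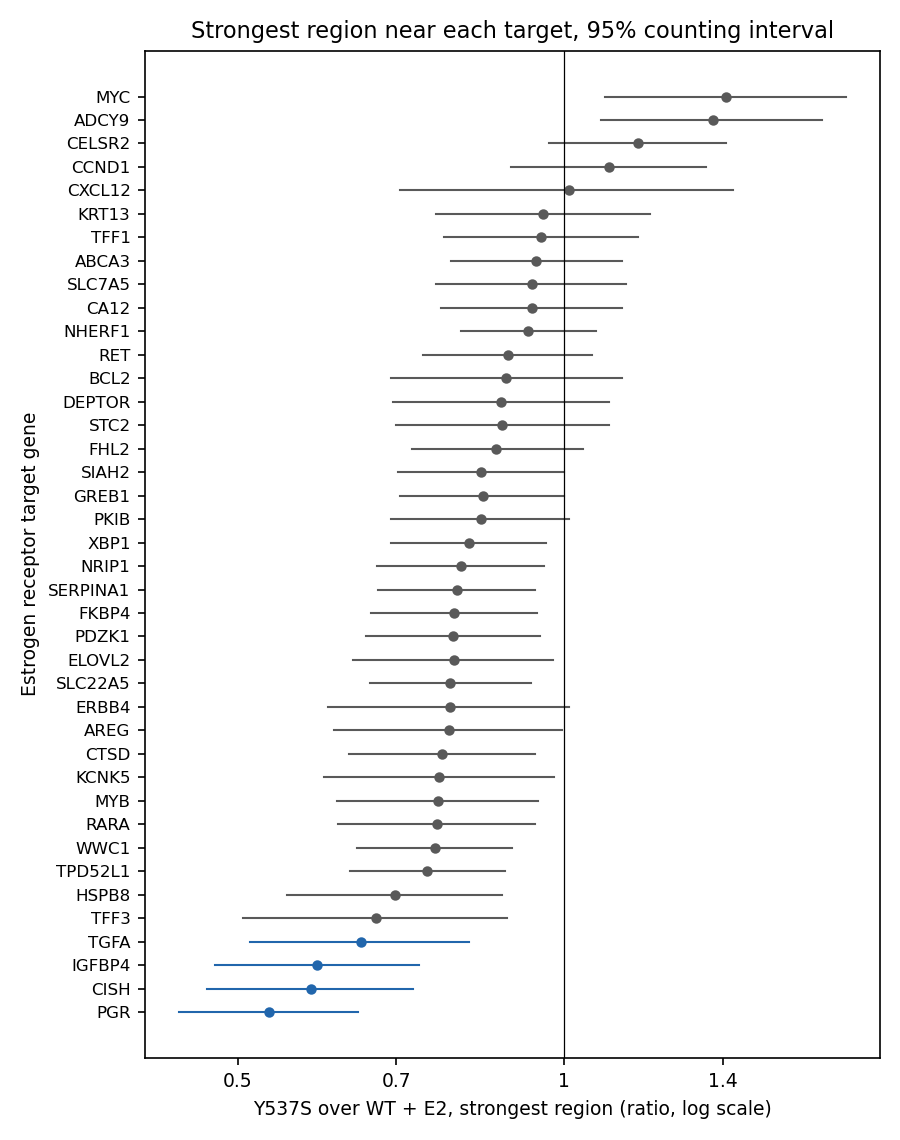
Ratio of Y537S to WT + E2 (log axis) at the strongest region of each of 40 estrogen receptor targets, with lines for the 95% counting interval. The regions called lower (blue) are those of PGR, CISH, IGFBP4 and TGFA, and the others (grey) run from 0.671 at TFF3 to 1.41 at MYC.

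Other gene lists were read the same way, and binding near a gene does not show its expression. Of 76 regions near luminal lineage genes, 12 were higher (15.8%) and 3 lower (3.95%), beside 6.96% and 6.59% of all regions. Their median log2 was -0.02, which background scaling turned to 0.14. Of the 4 regions near GATA3, a pioneer factor of luminal cells, 2 were higher and 1 lower, and the lower one was the strongest, with 56 fragments in Y537S and 121 in WT + E2 (ratio 0.487). The strongest regions near MUC1, a membrane mucin (149 in Y537S and 86 in WT + E2), and OVOL1, an epithelial repressor (165 in Y537S and 102 in WT + E2), were higher. The strongest region near FOXA1, the main pioneer factor of ERα, was not called, with 151 in Y537S and 141 in WT + E2. Of 67 regions near androgen receptor and apocrine genes, 13 were higher (19.4%) and 2 lower (2.99%), beside 6.96% and 6.59% of all regions. Their median log2 was 0.07. Of the 13, FASN, the fatty acid synthase, and NDRG1, a stress-response gene, had 3 each and SLC45A3, the prostein gene, had 2. No strongest region of that list was called.

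Of 62 regions near growth factor receptor and PI3K genes, 9 were higher (14.5%) and 2 lower (3.23%), beside 6.96% and 6.59% of all regions. Their median log2 was 0.25. AKT1, the kinase downstream of PI3K, had 6 of its 9 regions called higher, and its promoter had 105 fragments in Y537S and 52 in WT + E2 (ratio 2.13, 1.51 to 3.02). The 20 Mb window that holds AKT1 had a median of 0.28 over 218 regions, so the neighbourhood as a whole was above the median region. Near the coregulator genes 6 of 61 were higher (9.84%) and 3 lower (4.92%), beside 6.96% and 6.59% of all regions, and the strongest region near CARM1, an arginine methyltransferase coactivator, was higher, with 138 fragments in Y537S and 64 in WT + E2. CARM1 lies on chromosome 19.

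Near cell cycle genes 3 of 34 were higher (8.82%) and 1 lower (2.94%), beside the 6.96% and 6.59% of all regions. The strongest region near E2F2 had 116 fragments in Y537S and 62 in WT + E2. The one near CDT1, a replication licensing factor, had 106 in Y537S and 59 in WT + E2. The one near E2F1 had 59 in Y537S and 124 in WT + E2. It lay 820 bp outside E2F1, with its summit in the promoter of NECAB3. Of 46 regions near neuronal genes, 4 were higher and 11 lower (23.9%), 7 of them among the 12 of RBFOX3, a splicing factor, whose strongest region had 163 fragments in Y537S and 276 in WT + E2. SYT1 was also lower, and SNAP25 and ELAVL4 higher, the last with 95 in Y537S and 32 in WT + E2. RBFOX3 and SYT1 lost their calls with background scaling. Near basal genes 1 of 39 was higher and 2 lower, near hepatocyte genes 1 of 25 in each direction, and near immune genes 3 of 23 were higher and 1 lower. These are counts of 1 to 3 regions, and 6.96% of all regions were higher and 6.59% lower. SPI1, a myeloid factor (94 in Y537S and 50 in WT + E2), lost its call with 5 Mb windows, and LYZ, lysozyme, had 183 in Y537S and 125 in WT + E2.

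Differences had a regional side. On chromosome 6 the median log2 ratio over 1760 regions was -0.35, with 1.31% higher and 19.1% lower. On chromosome 19 it was 0.30 over 827 regions, with 157 higher and 22 lower (2.66%), and on chromosome 15 it was -0.17 over 1231 regions, with 3.82% higher and 12.8% lower. All 9 windows of 20 Mb on chromosome 6 lay between -0.45 and -0.27, all 4 on chromosome 15 between -0.31 and -0.13, and all 3 on chromosome 19 between 0.10 and 0.36. The ratio of Y537S + E2 to WT gave -0.35, -0.17 and 0.27 on chromosomes 6, 15 and 19, while WT + E2 over WT gave -0.01, -0.01 and 0.00. Scaling by background shifted every chromosome up, to -0.20, -0.02 and 0.45 on these 3. Without these chromosomes 2074 regions were higher and 1954 lower.

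Position relative to genes also separated the called regions. Chromosome 8 is not used here for start sites. Within 1 kb of a transcription start lay 10.6% of the higher regions (243 of 2283), 3.71% of the lower ones (82 of 2212) and 6.42% of those not called. More than 50 kb from a start lay 24.7% of the higher, 39.8% of the lower and 32.0% of those not called. Inside a gene span lay 66.1% of the higher, 44.6% of the lower and 53.2% of those not called. The median ratio was 1.10 under 250 bp, 1.13 from 250 to 1000 bp, 1.01 from 5000 to 20000 bp and 0.945 beyond 100000 bp. The log2 median of WT + E2 over WT within 250 bp was -0.04, and that of Y537S + E2 over WT was 0.08. Regions of 1 list showed the same order, with 10.9% of the Y537S regions and 6.37% of the WT + E2 regions within 1 kb.

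**Figure D5:**
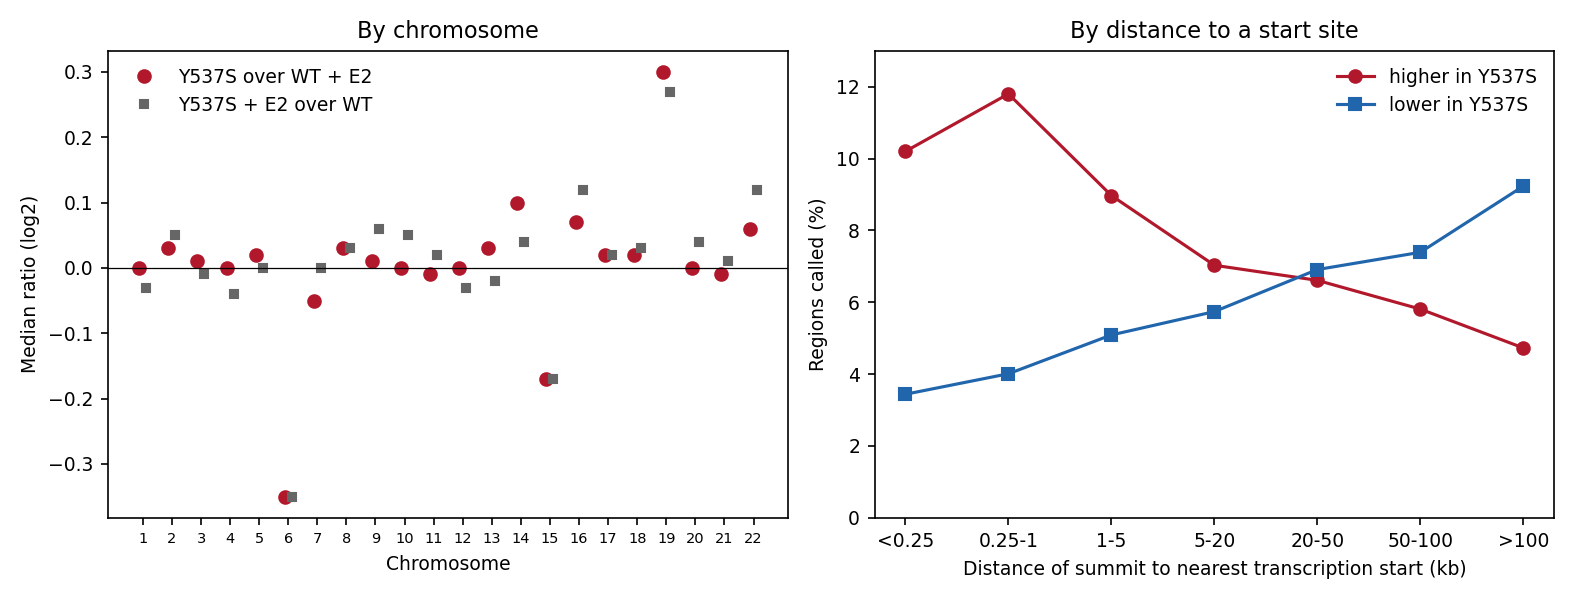
Left, the median log2 ratio per chromosome for Y537S over WT + E2 (red) and for Y537S + E2 over WT (grey), where chromosomes 6 and 15 lie below and 19 above the rest in both. Right, the percent of regions called higher (red) or lower (blue) in Y537S by distance of the summit to the nearest transcription start, with 10.2% higher and 3.44% lower under 250 bp and 4.73% higher and 9.23% lower beyond 100 kb.

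Of 33725 RefSeq promoters (250 bases before and 50 after each start, chromosomes 1 to 22 without 8), 629 held the summit of a compared region. The region was higher in Y537S at 54 of them (8.59%) and lower at 23 (3.66%), beside 6.96% and 6.59% of all regions compared. The higher ones included CYP19A1, the gene of the estrogen-synthesising enzyme aromatase, with 193 fragments in Y537S and 135 in WT + E2, CTSD, cathepsin D, with 100 in Y537S and 55 in WT + E2 (ratio 1.91), RBP4, the retinol carrier, with 181 in Y537S and 105 in WT + E2 (1.81), and the start shared by the sterol transporters ABCG5 and ABCG8, with 150 in Y537S and 76 in WT + E2 (2.08). These were chosen after their values were seen. CTSD also had 3 of its 9 regions lower, the strongest of its regions having 179 fragments in Y537S and 244 in WT + E2. GGTCA on either strand was in 73.3% of the 629 promoters and in 37.4% of all. It was in 66.7% of the promoters of higher regions (53.4 to 77.8), 82.6% of those of lower regions (62.9 to 93.0) and 73.6% of the others. The full element (GGTCA, 3 free bases and TGACC), which also counts as a match of GGTCA, was in 6 of the 629 (0.954%) and in 20 of all (0.0593%), with 0 of 54 among the higher and 2 of 23 among the lower. The AP-1 motif TGANTCA was in 2 of the 54 promoters of higher regions and 4 of the 23 of lower ones, the forkhead motif TGTTTAC in 0 and 4, and the GATA motif AGATAA in 4 and 3. These motifs, searched on both strands, were in 10.3%, 4.13% and 5.56% of the 629 and in 7.67%, 3.45% and 10.4% of all promoters. The promoters differed in base composition too. Median GC content was 68.3% with 25 CpG for the higher and 51.7% with 4 CpG for the lower. It was 63.3% with 21 CpG over the 629 and 58.7% with 14 over all. Gene type differed as well, with 45 of the 54 higher and 8 of the 23 lower promoters protein-coding. Protein-coding promoters made up 404 of the 629 and 21156 of all 33725. A motif match is a description of letters in this window and not a binding site.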

How the data were processed

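ERα ChIP-seq was analysed from 6 deposited peak lists, 1 library for each combination of receptor (Y537S, WT, K303R) and E2. Per the submitters' processing notes, Bowtie2, SAMtools, Picard, bedtools and MACS2 were used on build hg38. No source used here gives their versions and roles, the control library or the peak threshold. Input was 2 ng of DNA, read as pairs of 75 bp, per the labels' protocols. For each peak the authors' list gives a summit, −log10 values of p and q, and a fold enrichment (a ratio to local background). The deposited score was not used.

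Summit fragments and local background were solved from the authors' fold, which carries a pseudocount of 1, and the −log10 p. Intervals treat fragments as independent, and PCR copies are not told apart. Peaks of the Y537S and WT + E2 lists were merged by 1 bp overlap. Values of other libraries came from peaks whose summit lay inside the merged region. Calls used intervals with a 2-sided error of 0.001, and printed intervals are 95%. Depth in reads is unknown, and with 1 library a group no test between conditions was made. The recovery of fragments and the calls were checked on simulated data. The genes named are the 8 highest and 8 lowest called regions, the 12 targets with most fragments, targets and listed genes whose strongest region was called, the 8 most raised and 3 most lowered by E2 in K303R, and the 3 most significant regions of each list alone, with exceptions said in the text; some genes these rules name are not reported here. Members, the 10 gene lists (237 entries, 1 matched through an older symbol, NRIP1 in 2 lists) and rules were chosen with earlier results of these data known. Alternatives covered scaling, minimum, overlap, threshold and gene window. Python 3.11.15, NumPy 2.4.6, SciPy 1.17.1, pandas 2.3.3 and matplotlib 3.10.9 were used.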

Additional observations from a re-analysis of the deposited data

Results flagged for a closer look

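Regions on chromosome X lay outside the comparison of chromosomes 1 to 22 and carried a signal in both lists. The lists gave 4582 merged regions there, 2869 of them in both, and 891 met the minimum of 50 mean fragments. Their median ratio of Y537S to WT + E2 was 0.857 (log2 -0.22), relative to the median region of the other chromosomes.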

How the results depend on the processing

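No paired analysis was possible because each group has 1 library and the labels give no replicate numbers. The share of regions in both lists (66.6%) became 63.2% with 50% overlap and 70.0% at a −log10 q of 10 or more, and the Jaccard index (0.609) became 0.636 at that q and 0.620 with equal numbers of peaks. Strong regions without a partner (0 in each direction) became 4 of Y537S and 7 of WT + E2 ranked by fold, and 438 and 560 among 50000. The calls (2443 higher, 2313 lower) became 4211 and 1341 with background scaling, 3900 and 3741 at a minimum of 20 fragments, 999 and 814 at 100, and 1085 and 1151 with a call at 2-fold, interval included, and stayed within 1.5 times of those counts with 5 Mb windows (2056 and 2058), a minimum over the other 4 libraries (2121 and 2072) and a 99% interval (3599 and 3335). Leaving out chromosomes 6, 15 and 19, regions near starts, or summits over 100 bp apart, chosen after seeing the data, also stayed within it. At the 809 regions raised in K303R the median log2 ratio was 0.15. The set itself changed with the setting: 4747 raised regions with background scaling gave 0.22, and 466 with a 2-fold choice gave 0.27. Over estrogen receptor targets the median log2 ratio (-0.16) became -0.01 with background scaling and -0.07 with 5 Mb windows. For Y537S + E2 over WT at the called regions, the higher ones (0.86) gave 0.95 with background scaling and 0.83 with 5 Mb windows, and the lower ones (-0.77) gave -0.71 with background scaling. No called value changed sign. The RASSF4 region, not called, stood at -0.06 and with background scaling at 0.10. The medians over luminal (-0.02), basal (-0.02) and neuronal (-0.04) genes became 0.14, 0.13 and 0.11 with that scaling. Of 46 named regions, 41 kept their side of the call under background scaling (1 gained and 4 lost it) and 43 under 5 Mb windows (3 lost it). The causes of these shifts were not tested. One library a side, unknown read depth and the shared line and tag limit every comparison.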
